A study of Mus musculus with 16 samples.

Results

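Gene expression in mouse mammary tumours after sonidegib alone was set against that after an antibody to PD-L1 alone, with 4 tumours per treatment, 8 of the 16 libraries of the study. The 8 libraries were taken by the treatment in their labels, and the comparison covers every gene that reached 1 FPKM in 4 or more of the 16 libraries, 15105 of the 55146 genes in the table. FPKM scales the fragments of a gene by its transcript length and by the mapped fragments of the library. The tumours were MMTV-PyMT mammary tumours, in which the mouse mammary tumour virus promoter drives the polyoma middle T antigen in mammary epithelium. They came from donors aged 12 weeks and grew in the mammary fat pad 4 of FVB recipients, which were treated for 28 days. The first group received sonidegib at 20 mg/kg each day, and the second received 5 mg/kg of anti-PD-L1, given 2 times a week. The 4 tumours under both agents and the 4 under vehicle entered the gene filter, the estimate of the spread and the means from which deviations are taken, and are named where their levels help. Each library is bulk tumour RNA, so fewer cells of a type and less RNA per cell cannot be told apart. Whether the tumours of 1 group had different donors is not stated in the labels, so p-values reflect only how these tumours vary, part of which may be technical. Library numbers run through the groups in turn, so library order and treatment cannot be told apart.

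Sonidegib binds Smoothened, the membrane protein that carries the Hedgehog signal inward. Hedgehog ligands relieve the block that Patched places on Smoothened, and Gli transcription factors then act on targets such as Gli1, Ptch1 and Hhip. PD-L1, encoded by Cd274, is displayed by tumour and myeloid cells and restrains T cells through the receptor PD-1, and an antibody to PD-L1 blocks that contact. The series title names ceramide synthesis and PD-L1 internalisation, so genes of ceramide metabolism are described as well. Since neither group is untreated, a difference here is between the 2 drugs and does not by itself say which of them moved a gene. For some genes the difference of each drug from vehicle is therefore given beside it.

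In the fit of all 16 libraries, no gene passed an adjusted p of 0.05 in limma with Benjamini-Hochberg adjustment over the 15105 genes, 0% of those tested. The lowest adjusted p was 0.189, held by the noncoding transcript AY036118. A fit of only the 8 libraries called 2 genes, AY036118 and the processed pseudogene Gm16550, at a lowest adjusted p of 0.00441 in limma. One of the 16 libraries, vehicle replicate 3, stood apart with 11361 genes at 1 FPKM or more, against 13107 to 14784 in the other 15, and without it AY036118 alone was called (adjusted p = 4.96e-08 in limma). At an unadjusted p under 0.05 in limma there were 316 genes, 2.09% of those tested, of which 234 were higher after sonidegib (1.55%) and 82 lower (0.543%). That share is below 0.05, the rate that such a threshold gives where no gene differs. All 4 sonidegib tumours lay above all 4 anti-PD-L1 tumours for 339 genes (2.24%) and below them for 77 genes (0.51%), together 2.75%. With labels exchanged at random a gene is kept apart with a probability of 0.0286, which this share does not exceed. Differences are given as sonidegib minus anti-PD-L1 in log2(FPKM + 1), a scale that understates changes of genes near 1 FPKM. Their median over all genes was 0.01, with 7916 genes higher and 7188 lower, and their median size was 0.14. The 95% interval of a gene reached 0.57 to either side in the median and lay wholly between -1 and 1 for 12359 genes, 81.8% of those tested. Rank correlations over genes (Spearman's rho, a description) were 0.908 to 0.963 between treatments, 0.903 to 0.944 among sonidegib tumours and 0.929 to 0.962 among anti-PD-L1 tumours. The ranges between and within treatments covered nearly the same span.

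None of the library measures computed separated the treatments. Genes at 1 FPKM or more numbered 14028.5 ± 579 in sonidegib and 14139 ± 515 in anti-PD-L1 tumours (SD, n = 4 each, exact two-sided permutation p = 0.743), and the summed FPKM of mitochondrially encoded genes had an exact permutation p of 0.943. Depth, estimated from the size of the FPKM steps, was about 35.6 to 58.2 M fragments (M, mega). A single fragment on a transcript of 2 kb then amounts to 0.00859 to 0.014 FPKM. Luminal epithelial markers were high in all 8 tumours: the keratin Krt8 lay at 208, 697, 347 and 309 FPKM in sonidegib tumours and at 301, 280, 400 and 321 FPKM in anti-PD-L1 tumours. The adhesion protein Epcam lay between 224 and 378 FPKM over both groups. Oestrogen receptor Esr1 was at 1.88 to 2.24 FPKM in sonidegib and 1.58 to 2.87 FPKM in anti-PD-L1 tumours.

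The protein-coding genes of lowest p that were higher after sonidegib were Ppp1r1b, Alox5ap, Pcbd1, Dclk1, Wfdc2, Ckb, Stard3, Jade2, Krt23 and Prtn3, and in 9 of these 10 the groups did not overlap. They were named by their p, so their separation is a description. Each had an adjusted p of 1 in limma. Ppp1r1b, also called DARPP-32, an inhibitor of protein phosphatase 1 (chr11:98348404-98357796, plus strand, GRCm38), was at 5.10, 1.52, 2.82 and 4.59 FPKM in sonidegib tumours and at 0.323, 0.46, 0.154 and 0.67 FPKM in anti-PD-L1 tumours. The lowest sonidegib tumour had more than any anti-PD-L1 tumour, and the log2 difference was 1.62 (SE 0.37). Mean Ppp1r1b was 2.83 FPKM under both agents and 0.435 FPKM under vehicle. Alox5ap, the protein that presents arachidonic acid to 5-lipoxygenase for leukotriene synthesis (chr5:149264767-149288153), stood at 16.2, 5.92, 12.9 and 10.96 FPKM in sonidegib tumours, against 2.83, 4.47, 4.48 and 5.00 FPKM in anti-PD-L1 tumours. Its difference was 1.21 (SE 0.29), with means of 11.7 FPKM under both agents and 4.03 FPKM under vehicle.

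Wfdc2, a secreted protein with whey acidic protein domains, had the largest log2 difference of these 10 genes. It reached 54.9, 16.4, 32.1 and 49.96 FPKM in sonidegib tumours, against 2.61, 6.96, 8.75 and 13.9 FPKM in anti-PD-L1 tumours, a difference of 2.16 (SE 0.55). The microtubule-associated kinase Dclk1 had 28.9, 4.11, 9.68 and 7.45 FPKM in sonidegib tumours and 1.51, 2.69, 2.16 and 3.56 FPKM in anti-PD-L1 tumours. Its groups did not overlap, but sonidegib replicate 1 alone exceeded the other 3 by a wide margin. Krt23, a type I keratin, was at 16.7, 3.73, 5.11 and 15.7 FPKM in sonidegib tumours and 3.15, 2.35, 1.05 and 1.74 FPKM in anti-PD-L1 tumours. Ckb, the cytosolic creatine kinase, averaged 18.0 ± 5.17 FPKM in sonidegib and 6.36 ± 2.08 FPKM in anti-PD-L1 tumours (SD, n = 4 each). Pcbd1, which regenerates the tetrahydrobiopterin cofactor, averaged 4.35 ± 1.93 and 1.25 ± 0.577 FPKM in sonidegib and anti-PD-L1 tumours. Prtn3, proteinase 3 of neutrophil granules, overlapped between the groups, with 24.2, 6.71, 13.4 and 13.3 FPKM in sonidegib tumours and 2.23, 2.93, 5.29 and 8.72 FPKM in anti-PD-L1 tumours. Other granule genes were near 0 beside it: Elane was listed at 0 in all 4 sonidegib and 3 of 4 anti-PD-L1 tumours and Mpo at 0 in 3 of 4 of each, and their part in the Prtn3 values was not tested.

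**Figure D1:**
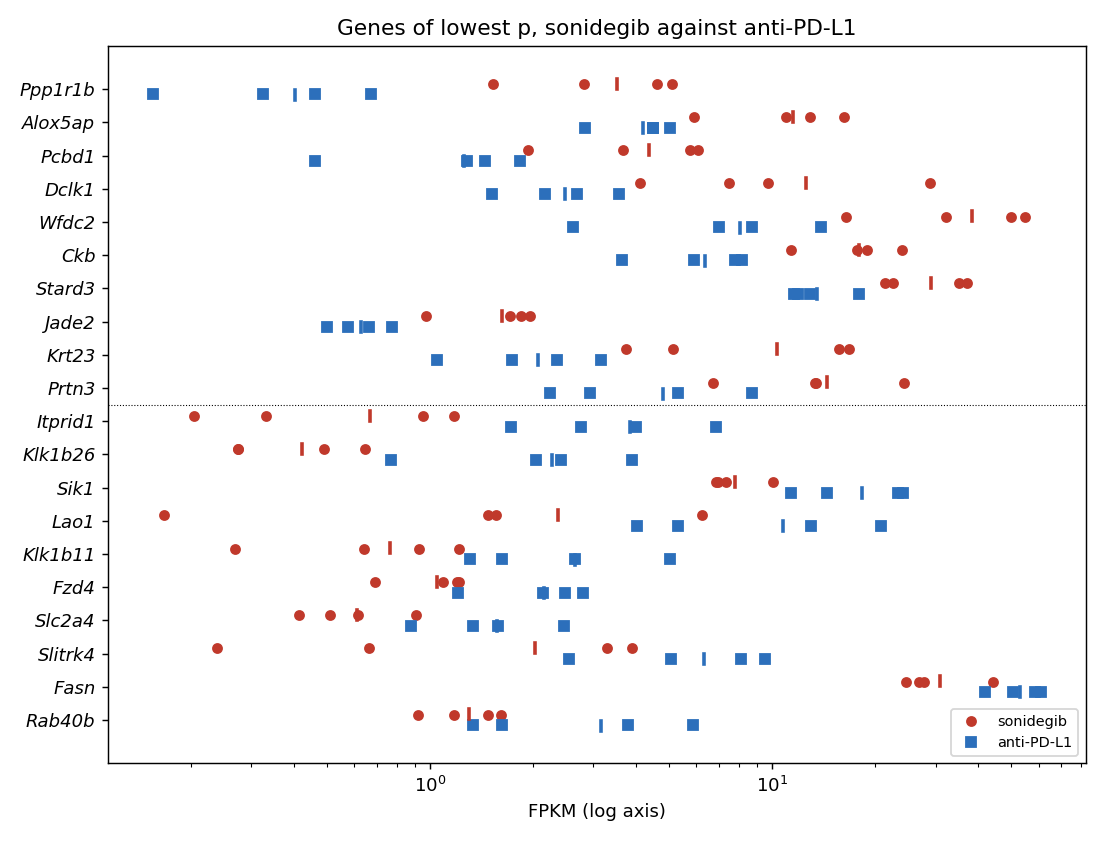
FPKM (log axis) of the 10 genes of lowest p above the dotted line that were higher after sonidegib and the 10 below it that were lower, 1 point per tumour (red circles sonidegib, blue squares anti-PD-L1) and vertical ticks at group means. The groups do not overlap in 9 of the upper 10 genes and in 4 of the lower 10.

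The 10 genes of lowest p that were lower after sonidegib were Itprid1, Klk1b26, Sik1, Lao1, Klk1b11, Fzd4, Slc2a4, Slitrk4, Fasn and Rab40b, again each with an adjusted p of 1 in limma. In 4 of them, Itprid1, Klk1b26, Sik1 and Klk1b11, the groups did not overlap. These 10 genes differed in where vehicle lay. In the order first named, the log2 difference of sonidegib from vehicle was -0.12, -0.37, -0.90, -0.44, -0.46, -0.02, -0.38, -0.46, -0.89 and -0.15. That of anti-PD-L1 was 1.35, 0.75, 0.18, 1.44, 0.51, 0.58, 0.26, 0.93, -0.11 and 0.57, and none of these passed the threshold. Sik1, a salt-inducible kinase that is induced by cAMP signalling (chr17:31844250-31855804), was at 6.83, 7.32, 10.05 and 6.92 FPKM in sonidegib tumours and 24.1, 14.4, 11.4 and 23.3 FPKM in anti-PD-L1 tumours, a difference of -1.09 (SE 0.28). Sonidegib tumours 1, 2 and 4 sat within a narrow band, while anti-PD-L1 tumours spread widely above them. Itprid1 had 0.204, 1.17, 0.954 and 0.332 FPKM in sonidegib tumours and 3.99, 2.75, 1.72 and 6.84 FPKM in anti-PD-L1 tumours. Klk1b26 and Klk1b11 belong to the glandular kallikreins, a cluster of near-identical genes on chromosome 7 between which reads can be split wrongly. Klk1b26 averaged 0.421 ± 0.181 FPKM in sonidegib and 2.28 ± 1.29 FPKM in anti-PD-L1 tumours (SD, n = 4 each). Fatty acid synthase Fasn stood at 24.6, 44.3, 27.8 and 26.8 FPKM in sonidegib tumours and at 61.0, 41.7, 50.5 and 58.7 FPKM in anti-PD-L1 tumours. Only sonidegib replicate 2 reached the anti-PD-L1 range. The amino acid oxidase Lao1, a milk protein in mice, averaged 2.36 ± 2.66 FPKM in sonidegib and 10.8 ± 7.77 FPKM in anti-PD-L1 tumours, with overlap. Slc2a4, the insulin-responsive glucose transporter GLUT4, was at 0.413 to 0.907 FPKM in sonidegib and 0.877 to 2.46 FPKM in anti-PD-L1 tumours. Fzd4, a Wnt receptor, averaged 1.05 ± 0.243 FPKM in sonidegib and 2.16 ± 0.689 FPKM in anti-PD-L1 tumours.

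AY036118 is a lincRNA of the ribosomal RNA locus on chromosome 17 (chr17:39847113-39848035, minus strand, GRCm38) and lies inside the annotated ribosomal RNA gene CT010467.1 on the same strand. It was at 1501, 264, 867 and 2854 FPKM in sonidegib tumours and below 0.001 FPKM in all 4 anti-PD-L1 tumours. Under both agents it was at 2708, 1890, 3632 and 2495 FPKM, and under vehicle it was near 0 in 3 tumours and at 215 FPKM in replicate 3. The fitted log2 difference of 9.96 (SE 1.44, adjusted p = 0.189 in limma) depends on the pseudocount, so no fold is given. Without vehicle replicate 3, the 1 vehicle tumour that had it, the difference was the same and its adjusted p was 4.96e-08 in limma, an alternative chosen after the data were seen. Leaving out any other single tumour did not bring a gene past the threshold. CT010467.1, which contains it, showed no such separation, with 2059, 4453, 2739 and 2156 FPKM in sonidegib tumours and 2278, 2111, 3618 and 3044 FPKM in anti-PD-L1 tumours. Gm42418, on the opposite strand, had 347, 907, 415 and 658 FPKM in sonidegib tumours and 322, 432, 436 and 1105 FPKM in anti-PD-L1 tumours. Cufflinks divides fragments of overlapping genes by a model, and its part in the AY036118 values was not tested.

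**Figure D2:**
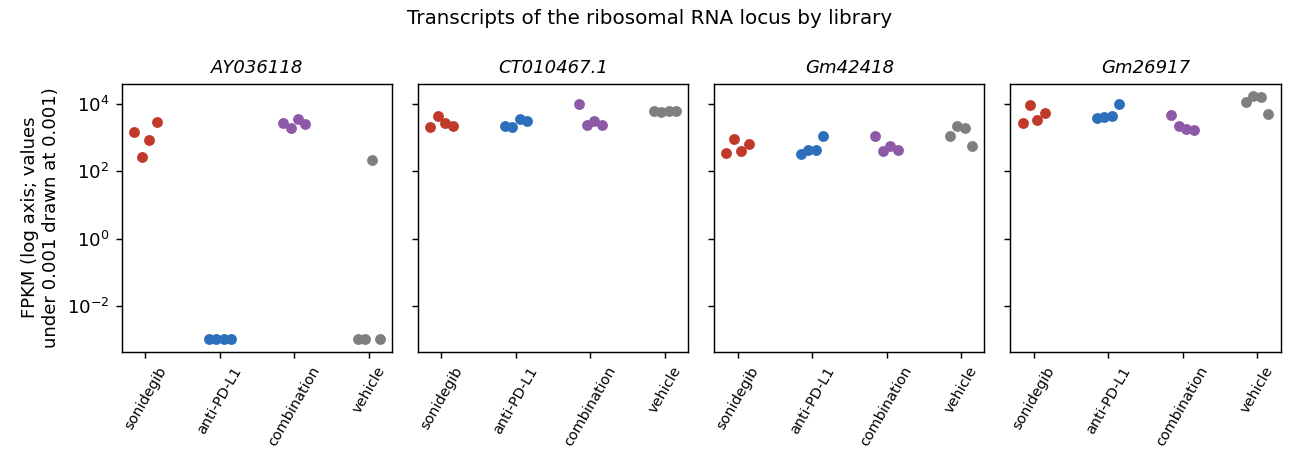
FPKM (log axis, values under 0.001 drawn at 0.001) of AY036118 and 3 other transcripts of the ribosomal RNA locus, 1 point per tumour in the 4 treatment groups. AY036118 is above 200 FPKM in every tumour that received sonidegib and near 0 in all 4 anti-PD-L1 tumours, while CT010467.1, Gm42418 and Gm26917 overlap between sonidegib and anti-PD-L1.

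Genes whose groups did not overlap lay most densely on chromosomes 11 and 15. Of 416 such genes, 168 (40.4%) lay on these 2 chromosomes, which hold 1769 (11.7%) of the genes tested. On chromosome 11, 108 of 1192 genes were all higher after sonidegib and 5 all lower, together 9.48%. On chromosome 15 these counts were 54 and 1 of 577, together 9.53%, against 1.35% to 3.62% on the other 18 chromosomes. The shift was shared by many genes and small in each: 68.3% of genes on chromosome 11 and 82.7% of those on chromosome 15 were higher after sonidegib, against 52.4% of all genes. With each library's trend on GC content removed, the non-overlapping shares were 5.2% on chromosome 11, 6.24% on chromosome 15 and 2.72% over all genes. This view by chromosome and its GC correction were chosen after the gene values were seen.

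To follow single tumours, each gene was expressed as its deviation from its mean over the libraries and the median deviation of a chromosome's genes was taken relative to that of all genes. For chromosome 15 this median was 0.072, 0.149, -0.069 and 0.104 in sonidegib tumours and -0.228, -0.086, -0.136 and -0.081 in anti-PD-L1 tumours, with every sonidegib tumour above every anti-PD-L1 tumour. The difference was 0.20 in log2 (exact two-sided permutation p = 0.0286, the smallest that 4 against 4 can give, 0.143 after adjustment over 20 chromosomes). For chromosome 11 it was 0.001, 0.006, 0.081 and 0.168 in sonidegib tumours and -0.091, -0.085, -0.015 and -0.084 in anti-PD-L1 tumours, a difference of 0.13 with the same p values. Chromosomes 10 and 12 separated the other way, by -0.05 and -0.06, with an exact permutation p of 0.0286 each and 0.143 adjusted. Vehicle tumours alone spread as widely on chromosome 15, at 0.250, 0.180, -0.006 and -0.154, and tumours under both agents lay between -0.080 and 0.097. With that GC trend removed, the difference was 0.19 on chromosome 15 (exact p = 0.0571) and 0.11 on chromosome 11 (exact p = 0.114), and neither chromosome kept the groups apart. Chromosomes 10 and 12 kept an exact permutation p of 0.0286 after that step, and chromosome 1, at -0.04, reached it. DNA copy number was not measured, and its part in these values was not tested.

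**Figure D3:**
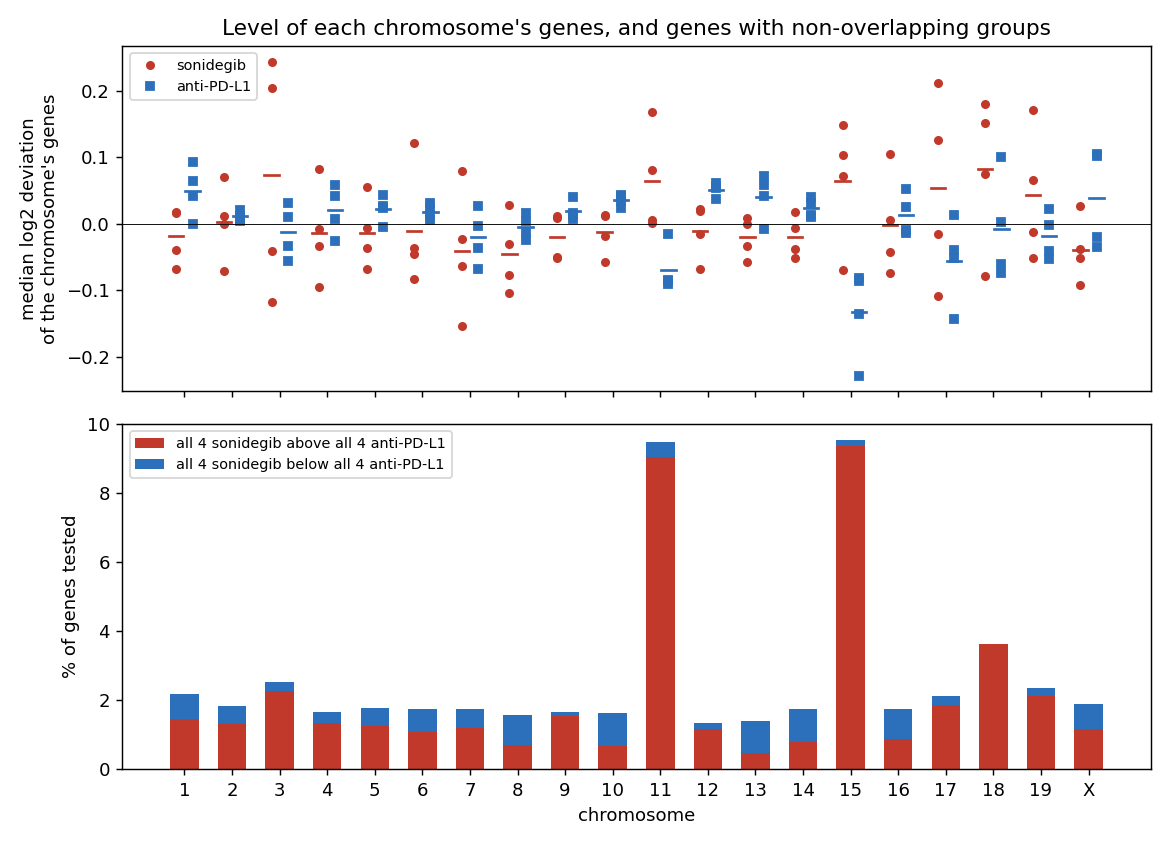
Above, the median log2 deviation of each chromosome's genes from their mean over libraries, relative to all genes, 1 point per tumour (red circles sonidegib, blue squares anti-PD-L1, lines at group means). Below, the percent of each chromosome's tested genes whose groups do not overlap, higher (red) or lower (blue) after sonidegib; chromosomes 11 and 15 reach 9.48% and 9.53%.

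On chromosome 11 the direction turned along its length. Bins of 5 Mb with at least 20 tested genes had positive medians up to 105 Mb, from 0.07 to 0.28, medians of -0.01 and -0.06 from there to 115 Mb, and the far end was more negative: of the 174 genes tested beyond 115 Mb, 153 (87.9%) were lower after sonidegib. Between 115 and 120 Mb the median deviation was -0.83, 0.62, 0.26 and -0.42 in sonidegib tumours, 0.22, 0.16, 0.39 and -0.31 in anti-PD-L1 tumours, 0.62, -0.81, -0.76 and -0.14 under both agents and 0.82, 0.26, 0.42 and 0.07 under vehicle. Tumours of 1 treatment differed widely there. Between 120 and 125 Mb, where Fasn and Rab40b lie, it was -0.27, -0.35, -0.21 and 0.003 in sonidegib tumours and 0.65, -0.33, 0.69 and -0.15 in anti-PD-L1 tumours. Here the sonidegib tumours lay close together, the anti-PD-L1 tumours spread widely, and the groups overlapped. The mitotic survival factor Birc5, thymidine kinase Tk1 and integrin beta 4, Itgb4, lie between 115 and 120 Mb. Itgb4 ordered the sonidegib tumours as its segment did, with 8.34, 88.9, 50.9 and 19.8 FPKM in sonidegib tumours and 49.8, 68.2, 59.8 and 38.3 FPKM in anti-PD-L1 tumours. Tk1 was at 20.0, 31.1, 28.0 and 21.2 FPKM in sonidegib tumours and 57.7, 32.9, 58.2 and 25.4 FPKM in anti-PD-L1 tumours, and Birc5 at 19.2 to 24.8 FPKM in sonidegib and 23.4 to 44.8 FPKM in anti-PD-L1 tumours.

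Ppp1r1b and Stard3 are next to each other on chromosome 11, in the interval that also holds the receptor tyrosine kinase gene Erbb2. Stard3, a cholesterol transfer protein of late endosomes (chr11:98358368-98381112, plus strand), had 37.1, 22.5, 21.3 and 35.1 FPKM in sonidegib tumours and 12.8, 11.9, 11.6 and 17.9 FPKM in anti-PD-L1 tumours, without overlap and with a difference of 1.02 (SE 0.27). Erbb2 (chr11:98412470-98437716) was at 9.28, 10.7, 14.3 and 9.18 FPKM in sonidegib tumours and 6.90, 8.40, 8.77 and 8.08 FPKM in anti-PD-L1 tumours, again without overlap, at 0.38 (SE 0.22). The adaptor gene Grb7 had 8.75, 9.59, 10.6 and 9.67 FPKM in sonidegib tumours and 5.97, 6.53, 6.46 and 7.75 FPKM in anti-PD-L1 tumours. The separation was not shared by every neighbour. Pgap3, at 7.24 to 8.16 FPKM in sonidegib and 5.29 to 7.29 FPKM in anti-PD-L1 tumours, and Mien1, at 53.2 to 99.5 FPKM in sonidegib and 41.8 to 54.8 FPKM in anti-PD-L1 tumours, lie between Stard3 and Grb7 and overlapped, as did Tcap. Med1 and Cdk12, on the other side of Ppp1r1b, overlapped, with Med1 at 11.2 to 16.2 FPKM in sonidegib tumours and 9.39 to 13.2 FPKM in anti-PD-L1 tumours. Under vehicle Erbb2 was at 15.1, 19.6, 10.4 and 9.99 FPKM, above the sonidegib range in 2 of 4 tumours.

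No Hedgehog gene passed the threshold between the inhibitor of Smoothened and the antibody to PD-L1. Of 15 genes of reception and transduction, 10 passed the filter, 5 higher and 5 lower, and in all 10 the groups overlapped. Smo itself was at 18.3, 15.2, 16.7 and 12.2 FPKM in sonidegib tumours and 13.8, 14.2, 15.5 and 18.8 FPKM in anti-PD-L1 tumours, means of 15.6 ± 2.63 and 15.6 ± 2.28 FPKM (SD, n = 4 each). The interval of its log2 difference ran from -0.50 to 0.49. Ptch1, receptor and target, was at 3.14, 3.46, 4.11 and 2.10 FPKM in sonidegib tumours and 3.17, 3.86, 3.71 and 4.07 FPKM in anti-PD-L1 tumours, with an interval from -0.66 to 0.30. The pathway's most direct readout was barely present: Gli1 lay at 0.0166, 0.118, 0.324 and 0.0406 FPKM in sonidegib tumours and 0.0155, 0.242, 0.0193 and 0.278 FPKM in anti-PD-L1 tumours (exact two-sided permutation p = 0.971). Hhip was listed at 0 in 3 of 4 tumours of each group. Among ligands, Shh was listed at 0 in all 4 sonidegib and 3 of 4 anti-PD-L1 tumours, while Dhh ranged from 0.0831 to 8.91 FPKM in sonidegib and from 1.28 to 8.19 FPKM in anti-PD-L1 tumours. The coreceptors Boc and Gas1 differed by -0.37 (SE 0.34) and -0.27 (SE 0.22).

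Genes often listed as Hedgehog targets, among them Ptch1, were lower in mean after sonidegib than after anti-PD-L1, without any passing the test. All 6 tested of the 12 listed targets had a negative difference, the smallest being -0.18 for Ptch1, which was also counted among the reception genes. The list had a median of -0.30 against 0.01 for all genes, and in all 6 the groups overlapped. That median was -0.47 without anti-PD-L1 replicate 1 and -0.24 without anti-PD-L1 replicate 2. Cyclin D1, Ccnd1, came nearest to separation, at 34.1, 53.4, 37.5 and 36.8 FPKM in sonidegib tumours and 63.1, 58.3, 49.1 and 70.6 FPKM in anti-PD-L1 tumours (exact two-sided permutation p = 0.0571, adjusted p = 1 in limma). Its mean was 31.1 FPKM under both agents and 38.4 FPKM under vehicle. Osteopontin, Spp1, the most abundant of them, ranged from 481 to 2095 FPKM in sonidegib and from 943 to 3411 FPKM in anti-PD-L1 tumours. Against vehicle, the log2 difference of sonidegib was 0.09 for Ccnd1, 0.34 for Sfrp1, 0.30 for Spp1, 0.39 for Bcl2 and -0.08 for Ptch1. That of anti-PD-L1 was 0.67, 0.69, 0.99, 0.64 and 0.11 in the same order, and none of these passed the threshold. Ccnd1, Spp1, Sfrp1 and Bcl2 also respond to other pathways.

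Cd274 and Pdcd1, the ligand and receptor of the PD-1 axis, were low in both groups. Cd274 was at 0.592, 0.459, 1.09 and 0.378 FPKM in sonidegib tumours and 0.671, 0.555, 0.689 and 0.668 FPKM in anti-PD-L1 tumours (exact two-sided permutation p = 1), with the anti-PD-L1 tumours inside the sonidegib range. Pdcd1, which encodes PD-1, ranged from 0.0557 to 0.805 FPKM in sonidegib and from 0.255 to 0.832 FPKM in anti-PD-L1 tumours (exact p = 0.971). Cd80, a costimulatory ligand of CD28 and CTLA-4 that also binds PD-L1, lay below the filter. It was the single one of 20 listed genes whose groups did not overlap. The share was 2.75% of all genes tested, which leaves out genes below the filter and so is no like comparison. Cd80 had 0.131, 0.149, 0.167 and 0.101 FPKM in sonidegib tumours and 0.252, 0.245, 0.216 and 0.315 FPKM in anti-PD-L1 tumours, with an exact two-sided permutation p of 0.0286, the smallest possible, unadjusted. Mean Cd80 was 0.0716 FPKM under vehicle. Among the 11 tested members, 4 were higher and 7 lower, with a median of -0.09 that was 0.03 without sonidegib replicate 1. The inhibitory receptor VISTA, Vsir, had 29.6, 11.4, 16.01 and 24.1 FPKM in sonidegib tumours and 14.7, 9.89, 12.1 and 13.8 FPKM in anti-PD-L1 tumours. Cmtm6, which keeps PD-L1 at the cell surface, had 22.5 to 26.4 FPKM in sonidegib and 25.005 to 37.9 FPKM in anti-PD-L1 tumours.

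T cell and cytotoxic genes were low in both treatments. Of 23 T cell genes 8 passed the filter, 4 higher and 4 lower, and of 16 natural killer and cytotoxic genes 4 passed, 2 in each direction. Cd8a had 0.0598, 0.257, 0.677 and 0.782 FPKM in sonidegib tumours and 0.377, 0.285, 0.980 and 0.735 FPKM in anti-PD-L1 tumours (exact two-sided p = 0.543). Sonidegib replicate 1 was low and the other 7 tumours overlapped. Cd4, Foxp3 and Ifng overlapped likewise, with exact permutation p of 0.4, 0.514 and 0.971. Cd5, a T cell surface receptor below the filter, was the 1 of 23 T cell genes without overlap. The share of 2.75% of all genes tested again leaves out genes below the filter. Cd5 was at 0.0865 to 0.113 FPKM in sonidegib and 0.2 to 0.334 FPKM in anti-PD-L1 tumours, and was chosen after its values were seen. Granzyme B, Gzmb, was at 0.333 to 1.53 FPKM in sonidegib and 0.250 to 0.766 FPKM in anti-PD-L1 tumours. The chemokine Ccl5 had 3.79, 2.36, 2.59 and 5.37 FPKM in sonidegib tumours and 2.31, 1.47, 2.65 and 2.14 FPKM in anti-PD-L1 tumours, a difference of 0.49 (SE 0.26). The monocyte chemokine Ccl8 ranged from 6.77 to 34.6 FPKM in sonidegib and from 12.9 to 32.01 FPKM in anti-PD-L1 tumours. Ly6c1 ranged from 3.09 to 8.35 FPKM in sonidegib and from 2.65 to 7.89 FPKM in anti-PD-L1 tumours.

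Macrophage genes were expressed in all 8 tumours. All 20 listed genes were tested, 15 higher and 5 lower with a median of 0.14 that was 0.02 without anti-PD-L1 replicate 2. None passed the threshold. The complement gene C1qa had 61.2, 86.4, 79.3 and 105 FPKM in sonidegib tumours and 72.5, 47.4, 93.3 and 90.5 FPKM in anti-PD-L1 tumours, and the receptor Csf1r 10.7 to 18.2 FPKM in sonidegib and 13.8 to 16.2 FPKM in anti-PD-L1 tumours. Arginase 1, Arg1, had the largest difference of the list at 1.77 (SE 0.90), with 177, 61.4, 31.1 and 237 FPKM in sonidegib tumours and 17.8, 29.4, 12.3 and 82.3 FPKM in anti-PD-L1 tumours. Its tumours overlapped because anti-PD-L1 replicate 4 exceeded sonidegib replicates 2 and 3.

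Antigen presentation through MHC class II was lower in mean after sonidegib in all 8 tested of 10 genes, with overlap in each. Cd74, the invariant chain, was at 28.1, 175, 201 and 247 FPKM in sonidegib tumours and 183, 146, 290 and 262 FPKM in anti-PD-L1 tumours, and H2-Ab1 at 9.07, 47.8, 70.6 and 77.9 FPKM in sonidegib tumours and 55.4, 37.4, 103 and 74.9 FPKM in anti-PD-L1 tumours. Sonidegib replicate 1 was far below the other 7. The median difference of the list, -0.33, came to -0.002 without that tumour. From vehicle, the log2 difference of sonidegib was -0.19 for Cd74 and -0.13 for H2-Ab1. That of anti-PD-L1 was 0.56 and 0.53, and none of these passed the threshold. MHC class I and interferon gamma response genes divided into 13 higher and 12 lower with a median of 0.05, which was negative under another scaling, and type I interferon genes into 12 and 12. Ifi35, an interferon-induced gene on chromosome 11, was the 1 gene of both lists without overlap, against 2.75% of all genes tested. It was at 24.1, 27.4, 21.5 and 29.1 FPKM in sonidegib tumours and 18.6, 14.4, 18.3 and 19.7 FPKM in anti-PD-L1 tumours.

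Ceramide and sphingolipid genes divided into 15 higher and 16 lower of 31 tested, with a median of -0.04 that was 0.04 without sonidegib replicate 4. None passed the threshold. Ceramide synthase 2, Cers2, which makes ceramides of very long chain fatty acids, was at 52.6, 56.3, 52.0 and 64.9 FPKM in sonidegib tumours and 42.3, 42.2, 51.4 and 36.5 FPKM in anti-PD-L1 tumours, a difference of 0.39 (SE 0.29). Cers5, a ceramide synthase with preference for shorter acyl chains, lies on chromosome 15 and was at 22.3, 22.4, 19.7 and 21.3 FPKM in sonidegib tumours and 16.5, 15.996, 17.9 and 16.3 FPKM in anti-PD-L1 tumours. In both Cers2 and Cers5 the groups did not overlap. They were among 3 such genes of 31 tested, against 2.75% of all genes tested. Cers6 overlapped between the groups, at 2.36 to 4.80 FPKM in sonidegib and 1.47 to 4.60 FPKM in anti-PD-L1 tumours. Cers4 and Cers1 were below the filter, and Cers4 was high in sonidegib replicate 1 alone, at 4.22 FPKM against 0.193 to 1.06 FPKM in the other 3 sonidegib tumours and 0.294 to 0.485 FPKM in anti-PD-L1 tumours.

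Milk and secretory genes had the lowest median of all lists, -0.95 over 10 tested genes, 3 higher and 7 lower, with none past the threshold and overlap in every gene. Kappa casein, Csn3, was at 385, 3597, 3113 and 2468 FPKM in sonidegib tumours and 7363, 5163, 4682 and 1924 FPKM in anti-PD-L1 tumours. Wap, whey acidic protein, was at 27.9, 15.1, 5.17 and 13.9 FPKM in sonidegib tumours and 48.1, 12.9, 24.2 and 62.5 FPKM in anti-PD-L1 tumours. The casein Csn1s1 differed by -2.62 (SE 1.22), with 17.1, 1.62, 1.87 and 0.794 FPKM in sonidegib tumours and 13.5, 3.46, 15.9 and 317 FPKM in anti-PD-L1 tumours. Set against vehicle, the log2 difference of sonidegib was -0.56 for Csn3, -0.03 for Wap and 0.11 for Csn1s1. That of anti-PD-L1 was 0.69, 1.14 and 2.73 in the same order, and none of these passed the threshold. Anti-PD-L1 replicate 4 stood out for Csn1s1 and Btn1a1, and also for the basal keratin Krt5, at 31.97 FPKM against 0.987 to 7.30 FPKM in the other 7 tumours. Without it the median of the milk list was -0.40. Luminal genes were 5 higher and 12 lower with a median of -0.08, and basal genes 4 higher and 6 lower with a median of -0.23 that was 0.20 without the same tumour.

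**Figure D4:**
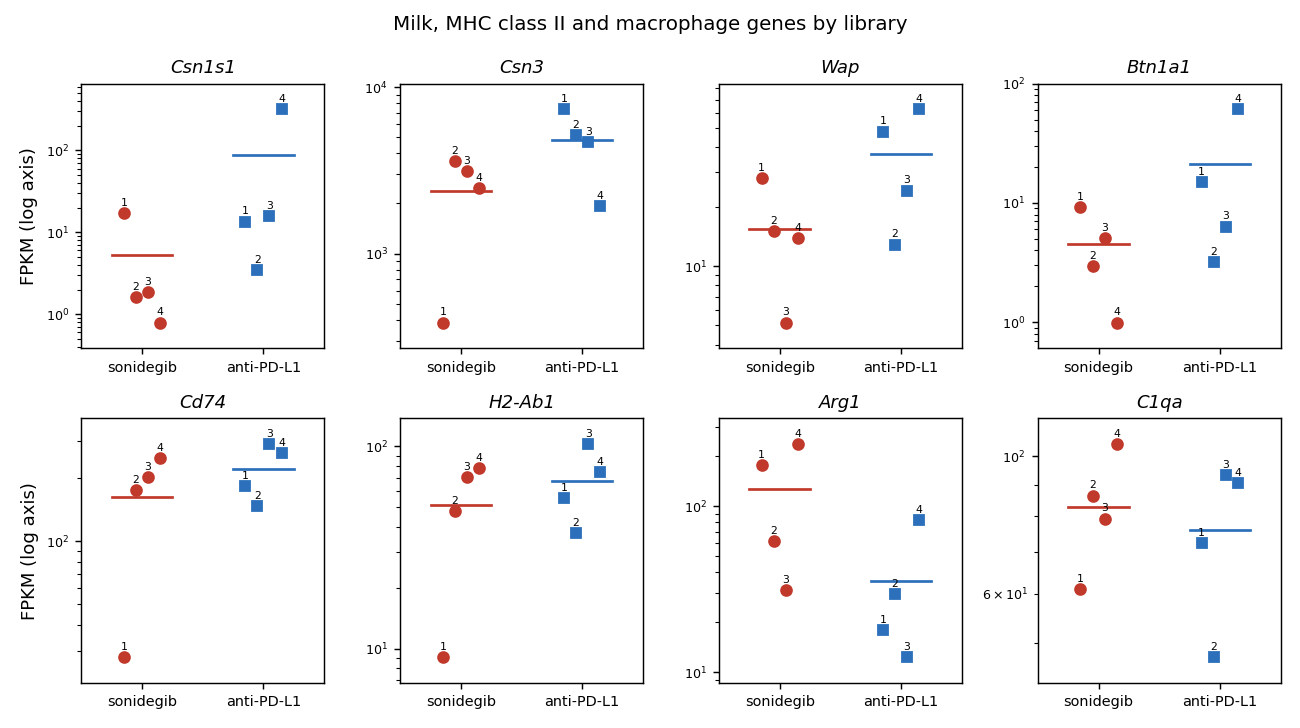
FPKM (log axis) of 4 milk genes (above) and of 2 MHC class II and 2 macrophage genes (below), 1 point per tumour numbered by replicate, lines at group means (red sonidegib, blue anti-PD-L1). Sonidegib replicate 1 is lowest for Cd74, H2-Ab1 and Csn3, anti-PD-L1 replicate 4 is highest for Csn1s1, Wap and Btn1a1, and the groups overlap in all 8 genes.

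Host tissue genes varied by tumour. Skeletal muscle genes were lower in mean after sonidegib in 12 of 13, with a median of -0.51. The 13 genes summed to 17.9 to 165 FPKM in sonidegib tumours and to 5.22 to 864 FPKM in anti-PD-L1 tumours, the highest being replicate 2. The median was 0.47 without that tumour and -1.44 without anti-PD-L1 replicate 4. Anti-PD-L1 replicate 2 was also the highest of the 8 for the adipocyte genes Fabp4 and Lpl, and the adipocyte median of -0.68 over 5 tested genes was 0.06 without it. Lipoprotein lipase, Lpl, did not overlap, at 1.36, 1.60, 0.731 and 0.999 FPKM in sonidegib tumours and 2.90, 4.57, 1.75 and 2.29 FPKM in anti-PD-L1 tumours (difference -0.80, SE 0.34), while Adipoq was below 1 FPKM in all 8. The part of muscle and fat in Slc2a4, which both tissues express, was not tested. Slc2a4 was also highest in anti-PD-L1 replicate 2, at 2.46 FPKM. Fibroblast and matrix genes were higher in mean in 20 of 25, with a median of 0.10 that came to -0.02 without anti-PD-L1 replicate 4. The protease inhibitor Timp1 had 21.5, 16.2, 13.2 and 19.1 FPKM in sonidegib tumours and 9.999, 14.2, 10.7 and 7.90 FPKM in anti-PD-L1 tumours, and Vim, vimentin, 65.0 to 117 FPKM in sonidegib and 38.9 to 74.8 FPKM in anti-PD-L1 tumours. Endothelial genes were 1 higher and 11 lower, with a median of -0.04 that was 0.03 without sonidegib replicate 4.

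Among cell state lists, p53 targets had 13 of 18 higher with a median of 0.11 that was 0.001 without anti-PD-L1 replicate 3. Dram1, a lysosomal regulator of autophagy, led them at 3.69, 1.23, 2.66 and 4.53 FPKM in sonidegib tumours and 0.861, 1.03, 1.39 and 1.11 FPKM in anti-PD-L1 tumours (difference 0.87, SE 0.26, adjusted p = 1 in limma). Only sonidegib replicate 2 fell within the anti-PD-L1 range. Cdkn1a, the cell cycle inhibitor p21, overlapped widely. Hypoxia and glycolysis genes were lower in 17 of 22 with a median of -0.12 that came to 0.10 without sonidegib replicate 4, and immediate early genes in 11 of 13 with a median of -0.18 that was -0.06 without sonidegib replicate 1. The oxygen sensor Egln3 had 42.2, 56.7, 41.2 and 41.8 FPKM in sonidegib tumours and 67.5, 44.8, 75.6 and 76.1 FPKM in anti-PD-L1 tumours. Proliferation genes were 8 higher and 12 lower, with a median of -0.04 that was 0.09 without anti-PD-L1 replicate 4. Mki67, a marker of cycling cells, was at 12.7, 5.63, 8.98 and 4.99 FPKM in sonidegib tumours and 11.2, 16.3, 5.34 and 9.87 FPKM in anti-PD-L1 tumours. Neutrophil genes were higher in 5 of 7 tested, with a median of 0.28 that was -0.04 without sonidegib replicate 4. The list summed to 71.3 to 267 FPKM in sonidegib and 143 to 872 FPKM in anti-PD-L1 tumours. Most of that sum was the single gene Ltf in each tumour, so the sum does not describe the list. Ltf was at 44.9, 153, 221 and 139 FPKM in sonidegib tumours and 482, 140, 819 and 101 FPKM in anti-PD-L1 tumours. Heat shock genes were higher in 8 of 13 with a median of 0.15, which was -0.04 under another scaling. Every one of the 37 list medians moved by over 1.5 times when some single tumour was left out. Over all lists, 8 of 455 distinct tested genes kept the groups apart, 6 higher and 2 lower, 1.76% against 2.75% of all genes tested. No gene of the 37 lists passed the threshold in the fit of all 16 libraries.

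**Figure D5:**
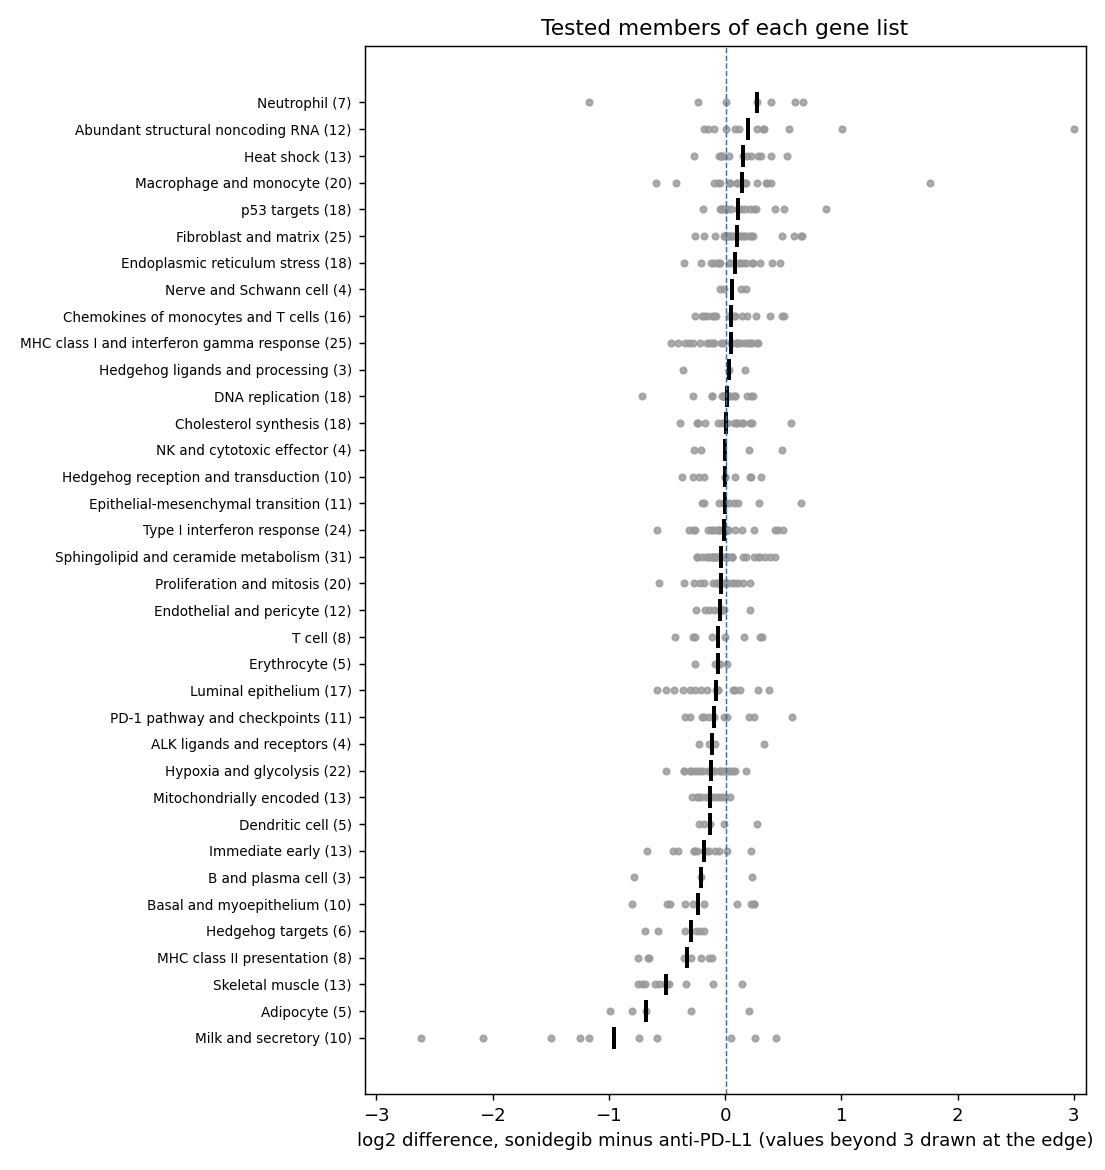
Log2 difference, sonidegib minus anti-PD-L1, of the tested members of each list with at least 3 of them (grey points, number tested in brackets, values beyond 3 drawn at the edge) and their median (black bar); the dashed line is the median of all genes tested. Medians run from -0.95 for milk genes to 0.28 for neutrophil genes, and no member passed the threshold in the fit of all 16 libraries.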

How the data were processed

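RNA was measured in 16 tumours, 4 in each of 4 groups taken from the treatment in the labels. The deposited values are FPKM, 1 column per library. Per the submitters' processing notes, TopHat and Cufflinks were used with the builds mm10 and GRCm38.p6. Their versions and the annotation are not stated there. Per the labels' protocols, library preparation removed ribosomal RNA and kept strand, while the molecule label names polyA RNA, and this was not resolved. FPKM scales out depth and length, so a few abundant transcripts can shift the others. Whole fragments could not be recovered: 26.0% to 32.7% of low values lay within 0.1 of a whole number of steps.

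Genes at 1 FPKM or more in at least 4 libraries were transformed to log2(FPKM + 1) and fitted with limma 3.58.1 in R 4.3.3 (1 mean per group over all 16 libraries, intensity trend, robust variance, two-sided, Benjamini-Hochberg over 15105 genes, threshold 0.05). Genes below that filter were compared by an exact two-sided permutation test of mean FPKM. Of the gene identifiers, 53992 matched GENCODE M21 (GRCm38) with version and 54547 without, which gave coordinates, strand and GC content. The procedure was tested on simulated data with 1 spread for all genes and added differences far larger than the median size found here. That test does not bear on differences near that median or on unequal spread. The 37 lists, with 607 entries of which 598 had a value and 463 were tested, and all members were chosen with earlier results of these data known. Named genes are the 10 of lowest p in each direction with a mean of at least 1 FPKM over the 8 libraries and no predicted symbol, up to 4 tested members of lowest p per list, and a fixed set of drug target, ceramide synthase and T cell genes. Shh, Tcap, Krt8, Krt5, Epcam, Esr1, C1qa, Csf1r, Cd5, Elane, Mpo, Adipoq, Med1, Cdk12, Grb7, Gm16550 and the other transcripts of the ribosomal RNA locus were chosen after their values were seen. Alternatives were other scalings, pseudocount 0.1, other filters, only the 8 libraries, no trend or robust variance, GC correction, a replicate block and leaving out each tumour (vehicle and combination tumours added after the data were seen). Some genes of the lists are not reported here.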

Additional observations from a re-analysis of the deposited data

Results flagged for a closer look

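A single tumour stood apart from the other 3 of its group in 20 of 181 groups of 4 values, checked over the 92 genes given in the text. The rule flags about 1 in 20 groups of normally distributed values, but it was applied to untransformed FPKM. A group with 3 values of 0 is always flagged, and some genes were chosen after their values were seen. The count therefore cannot be set against that rate and is a description. Among sonidegib tumours, Sik1 was 10.05 FPKM in replicate 3, against 6.83 to 7.32 FPKM in the other 3. Fasn was 44.3 FPKM in replicate 2, against 24.6 to 27.8 FPKM, and Egln3 was 56.7 FPKM there, against 41.2 to 42.2 FPKM. Csn1s1 was 17.1 FPKM in replicate 1, against 0.794 to 1.87 FPKM. Adipoq was 0.952 FPKM in replicate 4, against 0.0128 to 0.0156 FPKM.

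Among anti-PD-L1 tumours, replicate 4 was highest for several genes. There Csn1s1 was 317 FPKM, against 3.46 to 15.9 FPKM in the other 3, Krt5 was 31.97 FPKM, against 0.987 to 3.24 FPKM, and Alkal2, which activates the receptor ALK, was 16.3 FPKM, against 4.04 to 5.86 FPKM. Cd4 was 1.42 FPKM, against 0.387 to 0.524 FPKM. Gm26917 was 10093 FPKM, against 3858 to 4474 FPKM, and Gm42418 was 1105 FPKM, against 322 to 436 FPKM. Replicate 2 was highest for Dhh at 8.19 FPKM, against 1.28 to 1.70 FPKM, and for Tcap, a muscle sarcomere gene, at 17.7 FPKM, against 0.0208 to 2.00 FPKM, and lowest for Cd274 at 0.555 FPKM, against 0.668 to 0.689 FPKM.

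The others are genes listed at 0 in 3 tumours of a group. Hhip was 0.00434 FPKM in sonidegib replicate 1 and 0.0133 FPKM in anti-PD-L1 replicate 2. Mpo was 0.00778 FPKM in sonidegib replicate 1 and 0.0347 FPKM in anti-PD-L1 replicate 3. Elane was 0.0224 FPKM in anti-PD-L1 replicate 2, and Shh was 0.01003 FPKM in anti-PD-L1 replicate 3.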

How the results depend on the processing

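The count of genes past the threshold was 0 in the limma fit of all 16 libraries and in each alternative apart from 3. A fit of only the 8 libraries gave 2 genes (AY036118 and Gm16550, lowest adjusted p 0.00441 in limma), and a fit with no trend or robust variance gave 1 gene (AY036118). Leaving out 1 of the 16 tumours gave 0 to 1 genes, the 1 being AY036118 without vehicle replicate 3 (adjusted p 4.96e-08 in limma). Leaving out vehicle and combination tumours was chosen after the data were seen. Gm16550, a processed pseudogene, was at 3.87, 3.25, 9.001 and 10.9 FPKM in sonidegib tumours and listed at 0 in all 4 anti-PD-L1 tumours. The number of genes with unadjusted p under 0.05 was 316, against 764 with only the 8 libraries, 545 with GC correction, 497 under quantile normalisation, 1172 with no filter and 162 to 554 when 1 tumour was left out, with 554 without vehicle replicate 3, 162 without sonidegib replicate 4, 196 without sonidegib replicate 1 and 197 without anti-PD-L1 replicate 1. Replicate numbers did not consistently pair the tumours, with correlations of same-numbered deviations of 0.20, -0.02, 0.08 and 0.18. The highest with another number was 0.17, 0.15, 0.21 and 0.14, so the same number matched best for replicates 1 and 4 only. A replicate block gave 0 genes past the threshold and 300 at an unadjusted p under 0.05. Of 1899 values of 76 tested genes in the text over 25 settings, 1862 kept direction and side of the threshold, 4 passed it (AY036118 and Gm16550) and 33, in 16 genes, turned round. With 1 tumour left out, the log2 difference of Smo ran from -0.0816 to 0.103, the log2 difference of H2-Ab1 from -0.972 to 0.0178, the log2 difference of Ccl8 from -0.0915 to 0.641 and the log2 difference of Dhh from -0.993 to 0.106. The log2 difference of Krt5 ran from -0.973 to 0.378, the log2 difference of Krt8 from -0.196 to 0.384, the log2 difference of Epcam from -0.0575 to 0.193 and the log2 difference of Esr1 from -0.168 to 0.0268. The log2 difference of C1qa ran from -0.0604 to 0.282, the log2 difference of Csf1r from -0.163 to 0.0731, the log2 difference of Fabp4 from -0.633 to 0.0647 and the log2 difference of Tcap from -1.11 to 0.284. The log2 difference of Cdk12 ran from -0.0608 to 0.201, the log2 difference of CT010467.1 from -0.231 to 0.149, the log2 difference of Gm26917 from -0.48 to 0.164 and the log2 difference of Gm42418 from -0.159 to 0.461. Under quantile normalisation the log2 difference of Epcam was -0.209, the log2 difference of Gm42418 -0.245 and the log2 difference of Krt8 -0.133, and the log2 difference of CT010467.1 was -0.0223 under median-of-ratios scaling and -0.073 with GC correction. The median of 26 of 37 lists turned sign when 1 tumour was left out and of 9 under another scaling. The share of non-overlapping genes was 5.2% to 6.96% on chromosome 11, 6.24% to 6.93% on chromosome 15 and 2.42% to 2.72% over all genes under the other scalings or GC correction, chosen after the pattern was seen. The cause was not tested. Depth limits values near 0.01 FPKM, where a gene rests on about 1 fragment.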
